A study of Homo sapiens with 8 samples.

Results

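Hep3B is a human hepatocellular carcinoma (HCC) cell line. The comparison described here set the library labelled Hep3B and treated with 30 µM curcumin (Cur) and 6 µM piperine (Pip) for 48 h against the untreated control library of the same label, which is 2 of the 8 libraries of the series. The other libraries were sodium pentaborate pentahydrate (NaB, a boron compound) alone and with Cur and Pip under the same label, and the same 4 conditions in HepG2, another HCC line. NaB was given at 1700 µM under the Hep3B label and at 2500 µM in HepG2, and the doses of Cur and Pip were those above in both lines. All 8 carry the genotype WT in the labels, which name no vehicle for the controls, although the methods give DMSO as the solvent of the plant compounds. There is 1 library per condition, and the methods do not say whether it pools several cultures. No difference between these 2 libraries therefore has a replicate check, and no p-value is given.

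The deposited values are levels of assembled transcripts in FPKM, which counts fragments per kilobase of transcript on a scale set by the mapped fragments of the library. A transcript went to the gene whose exons cover 50% or more of its exonic bases on its strand, and the FPKM of a gene is the sum over its transcripts. The comparison took in 12607 genes, those that reached 1 FPKM in 1 or both libraries, as the log2 ratio of FPKM + 1 in treated over control. An absolute value over 1.5 (2.83-fold) was called past the threshold. A sum over assembled transcripts can fail when a transcript is broken up or joined to its neighbour, so a companion value, exon depth, is given beside it. Exon depth is the transcript depth averaged over the exon bases that 1 gene alone holds and that were assembled in either library, on the FPKM scale.

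The markers of the label were mostly missing. Of 31 hepatocyte genes, 4 had an FPKM of at least 1 in the control (summed level 494 FPKM) and 3 did after Cur and Pip (147 FPKM), against 24 and 26 in the HepG2 control and HepG2 after Cur and Pip. APOA1, the main apolipoprotein of HDL, was listed at 0 in both, and at 2078 and 1502 FPKM in those HepG2 libraries. The albumin gene ALB stood at 1.98 FPKM in the control and was listed at 0 after Cur and Pip, but it was listed at 0 in the HepG2 control too, where it was at 2998 FPKM after Cur and Pip. CPS1, the entry enzyme of the urea cycle, carried most of that sum, at 469 FPKM in the control and 138 after Cur and Pip. Both are therefore called libraries labelled Hep3B, and no other cell type is named. Estimated from depth and length, 33.4 M fragments lay behind the control and 31.4 M behind the treated library, within the 25.6 to 35.7 M of all 8. Single-exon transcripts made up 14.7% of 24846 transcripts in the control and 22.4% of 28636 after Cur and Pip, in a series range of 14.7 to 34.1%.

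Cur, the yellow polyphenol of turmeric, reacts with thiols of proteins, and Pip, an alkaloid of pepper, slows its conjugation and clearance. Electrophiles of this kind are known to free the transcription factor NRF2, which switches on genes for glutathione and thioredoxin, from its inhibitor KEAP1. Amino acid shortage and unfolded protein raise translation of ATF4, which with CHOP (the product of DDIT3) drives genes for amino acid supply, and misfolded protein in the cytosol releases the heat shock factor HSF1. The comparison asks what the 2 plant compounds did to transcripts on their own, without NaB.

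Among the 12607 genes, 845 were higher after Cur and Pip (6.70%) and 518 were lower (4.11%). Most of these were listed in only 1 of the libraries: of the 11289 genes listed in both, 206 were higher (1.82%) and 163 lower (1.44%). By both summed FPKM and exon depth in the same direction, 89 genes listed in both libraries were higher (0.788%) and 69 were lower (0.611%). The median log2 fold change was −0.00 over all genes and −0.02 over those listed in both, so the libraries were centred alike. Of the 10425 protein-coding genes listed in both, 126 were higher (1.21%) and 140 lower (1.34%) by summed FPKM, and 27 (0.259%) and 56 (0.537%) by both measures. Over all 11090 protein-coding genes compared, 375 were higher (3.38%) and 407 lower (3.67%). Higher genes thus outnumbered lower ones over all kinds of gene and not among protein-coding ones.

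**Figure D1:**
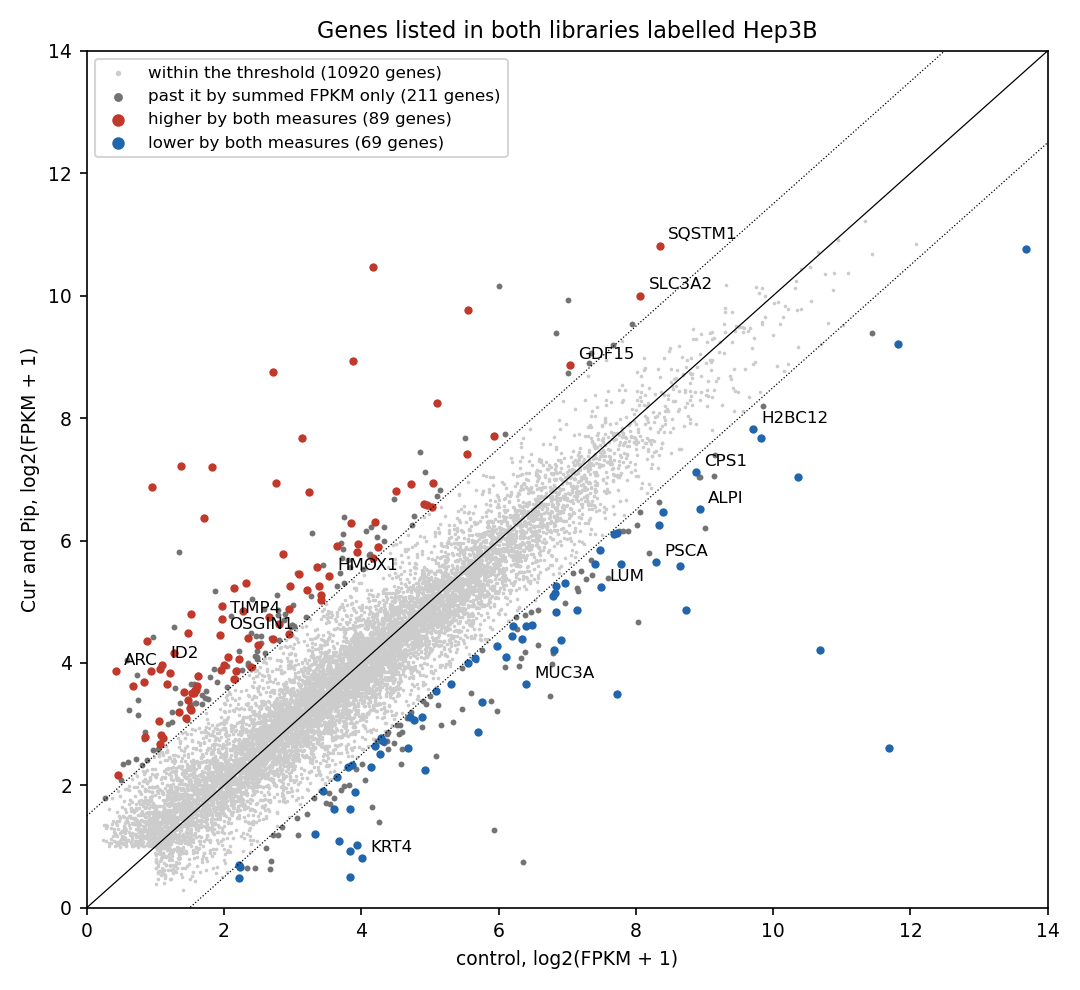
Level of each gene listed in both libraries labelled Hep3B, as log2(FPKM + 1) in the control (x axis) and after Cur and Pip (y axis), with 1 point per gene. The solid line marks equal levels and the dotted lines the threshold of 1.5. The 89 red and 69 blue points are past it by summed FPKM and by exon depth, and dark grey points by summed FPKM only.

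The 12 protein-coding genes highest by both measures had varied roles. ARC, an activity-induced gene of neurons that other cells can also express, was at 0.34 FPKM in the control and 13.6 after Cur and Pip (log2 fold change 3.44 by summed FPKM and by exon depth). ID2, an inhibitor of basic helix-loop-helix transcription factors, went from 1.14 to 14.7 FPKM (2.87). SNAI1, a repressor of E-cadherin, stood at 1.10 and 14.0 FPKM (2.83). All 3 genes were at 1.14 FPKM or below in the control, and their 95% Cufflinks intervals did not touch between the libraries. GCNT3, which branches mucin-type sugar chains, was at 0.59 FPKM in the control and 11.3 after Cur and Pip (2.95). BEX2, a small X-linked adaptor protein, was at 0.92 and 13.6 FPKM (2.92). TIMP4, an inhibitor of matrix metalloproteinases, was at 2.92 and 25.3 FPKM (2.74).

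OSGIN1 and SQSTM1 stood among the same 12. OSGIN1, an NRF2-driven growth inhibitor, was at 2.86 FPKM in the control and 20.9 after Cur and Pip (log2 fold change 2.50). SQSTM1, which encodes the autophagy receptor p62 that also binds KEAP1, was at 324 FPKM (95% interval 313 to 335) and 1801 FPKM (1746 to 1856), a log2 fold change of 2.47 and the highest level of the 12. TPRKB, a subunit of the tRNA-modifying KEOPS complex, was at 7.50 and 42.8 FPKM (2.37), and its exon depth gave 1.65. The last 3 of the 12 depend on the measure or on how transcripts were joined. RPL37A, a ribosomal protein gene with many near-identical copies, was at 5.54 and 429.6 FPKM (6.04, and 2.63 by exon depth). TUBA1A, an alpha-tubulin, was at 13.7 and 488 FPKM (5.06, and 2.28 by exon depth). DDAH2, which breaks down methylated arginines, was at 21.6 and 111 FPKM (2.31), and the treated transcript spans a neighbouring gene. With transcripts that span several genes left out, DDAH2 was at −4.50.

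A further 14 protein-coding genes met the same rule as higher, with log2 fold changes from 1.65 to 2.04. They included SLC3A2, the heavy chain of several amino acid exchangers, HMOX1, which breaks down heme, and SLC7A11, the cystine transporter that pairs with SLC3A2. ANGPTL4, a secreted inhibitor of lipoprotein lipase, was at 1.95 FPKM in the control and 10.4 after Cur and Pip (1.95). SPHK1, which makes sphingosine 1-phosphate, was at 6.72 and 28.3 FPKM (1.93). ETV4 and ETV5, related ETS-family transcription factors downstream of ERK signalling, were at 5.97 and 23.8 FPKM (1.83) and at 4.65 and 18.6 FPKM (1.79). They lie on different chromosomes, and both were about 4 times as high in the treated library by FPKM. SPHK1, ETV4 and ETV5 were named after their values were seen.

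**Figure D2:**
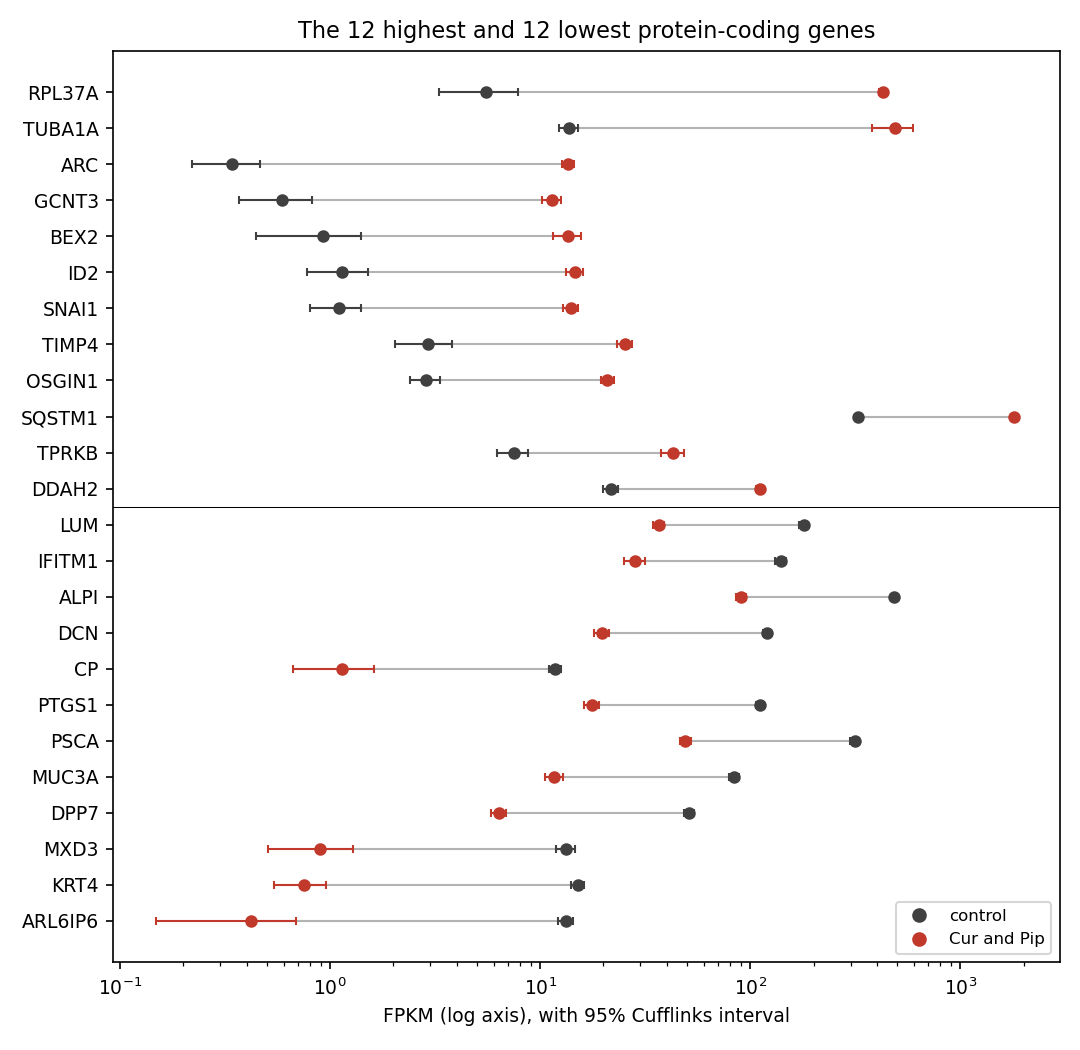
FPKM (log x axis) of the 12 highest and 12 lowest protein-coding genes that passed the threshold by both measures, in the control (dark points) and after Cur and Pip (red points). Bars are the 95% Cufflinks interval of the 1 library. The treated value lies right of the control in the upper 12 genes, from ARC at 13.6 against 0.34 to SQSTM1 at 1801 against 324, and left of it in the lower 12.

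The 12 lowest protein-coding genes included keratin, mucin, surface antigen and matrix genes. KRT4, a keratin of moist epithelia, was at 15.2 FPKM in the control and 0.75 after Cur and Pip (log2 fold change −3.21). MUC3A, a membrane mucin, was at 83.7 and 11.6 FPKM (−2.75). PSCA, a lipid-anchored surface antigen, was at 314 and 49.1 FPKM (−2.65). All 3 were also lower by exon depth, with −3.22, −2.90 and −2.45. ALPI, the intestinal alkaline phosphatase, was at 486 FPKM (467 to 504) and 90.3 FPKM (85.1 to 95.6), a log2 fold change of −2.41. ALPP, another alkaline phosphatase gene close by on chromosome 2, had a higher level, at 2789 and 667 FPKM (−2.06, and −1.45 by exon depth). ALPG, which lies between them, was at 46.4 FPKM in the control and listed at 0 after Cur and Pip. Whether these genes share reads was not tested. IFITM1, an interferon-induced membrane protein, was at 139.9 and 28.3 FPKM (−2.27).

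DCN and LUM, which encode the collagen-binding proteoglycans decorin and lumican, lie close together on chromosome 12. DCN was at 119.6 FPKM in the control and 19.7 after Cur and Pip (log2 fold change −2.54). LUM was at 179 and 36.8 FPKM (−2.26). Both belong to a list of 6 fibroblast markers, of which 4 reached 1 FPKM in each library, with a summed level of 305 FPKM in the control and 61.1 after Cur and Pip. COL1A1, the main collagen chain of fibroblasts, was at 3.99 and 3.14 FPKM, and 1 of the 6 was listed at 0 in each library. Of 12 intestinal markers only ALPI was listed, and 11 were at 0 in both libraries. Of 6 endothelial markers only CDH5 was listed, at 4.21 and 1.15 FPKM. Of 6 leukocyte markers 1 reached an FPKM of 1, CD68, a lysosomal protein of macrophages, at 15.2 FPKM in the control and 45.5 after Cur and Pip, while its exon depth was lower after treatment (−1.27). In bulk RNA fewer cells of a kind and less RNA per cell cannot be told apart, and the part of other cells in these differences was not tested.

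The other 5 of the 12 lowest included the enzymes PTGS1, CP and DPP7. PTGS1, the constitutive cyclooxygenase, was at 111 FPKM in the control and 17.6 after Cur and Pip (log2 fold change −2.59). CP, which encodes the ferroxidase ceruloplasmin, was at 11.8 and 1.14 FPKM (−2.58). DPP7, a lysosomal dipeptidase, was at 51.0 and 6.35 FPKM (−2.82, and −1.62 by exon depth). MXD3, a partner of MAX that competes with MYC, was at 13.3 and 0.90 FPKM (−2.91), and ARL6IP6, a small membrane protein, was at 13.2 and 0.42 FPKM (−3.32). A further 41 protein-coding genes met the rule as lower, down to −2.22, among them 4 histone genes. H2BC12, which encodes a histone H2B whose gene is also read into polyadenylated RNA, was at 835 FPKM in the control and 225 after Cur and Pip (−1.88). H2BC12L, a closely similar copy that may share its reads, was among the higher genes, at 1.74 and 7.61 FPKM (1.65). C3, the central complement protein, was at 113 and 37.2 FPKM (−1.57), and PSMB8, a subunit of the immunoproteasome, was at 83.4 and 23.2 FPKM (−1.80).

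Many genes were listed in only 1 library, and for these a level of 0 says only that no transcript was assigned. Of the protein-coding genes compared, 328 were listed only after Cur and Pip and 337 only in the control, and in 163 and 166 of these the exon depth was within the threshold. FTH1 and FTL, which encode the heavy and light chains of the iron store ferritin, show this. FTH1 was at 4089 FPKM in the control and listed at 0 after Cur and Pip, while its exon depth was 4089 and 3448 (log2 fold change −0.25). FTL was at 2021 FPKM and listed at 0, with an exon depth of 1959 and 1793 (−0.13). With exon depth also under 0.1 in the other library, 221 genes were listed only after Cur and Pip and 214 only in the control. The 5 highest of the first group were HNRNPCL1 (412 FPKM), OST4 (176), ASNS (131), SPCS1 (131) and HNRNPCL2 (127). The 5 highest of the second were CBX3 (330), ENSG00000285043 (121), SIK1 (111), PET100 (74.0) and TSPAN4 (74.0). OST4 and SPCS1, subunits of the oligosaccharyltransferase and of the signal peptidase, and CBX3, a heterochromatin protein, are used by most cells, so 0 is not read as silence here. HNRNPCL1 and HNRNPCL2 are near-identical copies of one another and of HNRNPC, which was at 323 FPKM in the control and listed at 0 after Cur and Pip.

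DDIT3, the gene of the stress factor CHOP, was at 8.46 FPKM in the control and listed at 0 after Cur and Pip, by summed FPKM and by exon depth. It lies on the minus strand of chromosome 12, next to MARS1, a tRNA synthetase gene that is read towards it. In the treated library a single MARS1 transcript at 89.1 FPKM ran on across DDIT3: of the DDIT3 exon bases assembled in the control, 98.3% lay inside exons of that plus-strand transcript, at a depth of 87.6 on the FPKM scale. The library kit named in the labels keeps the strand of the RNA. How the strand was passed to the assembler is not given in the sources used here, so reads of DDIT3 and of a long MARS1 transcript cannot be told apart, and DDIT3 gets no direction in this comparison. Such a cover by the other strand, over at least 50% of the assembled exon bases, was found for 8 of the 214 genes listed only in the control and for 3 of the 221 listed only after Cur and Pip. In HepG2 and in the second pair under the Hep3B label the exon depth of DDIT3 was higher after Cur and Pip, with log2 fold changes of 6.27 and 7.62. Whether a MARS1 transcript covers DDIT3 in any library of those pairs was not tested, so these values carry the same limit.

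The ATF4 and CHOP targets had the highest median of the stress lists. Of 24 members compared, 5 were past the threshold as higher and 1, DDIT3, as lower by summed FPKM, beside 6.70% and 4.11% of all genes, and 3 and 1 were by exon depth, beside 5.08% and 2.89%. These shares, also used for the lists below, take in all kinds of gene. Among protein-coding genes they were 3.38% and 3.67% by summed FPKM. By exon depth 214 of 11065 protein-coding genes were higher and 284 lower. With a pseudocount of 5 the higher members also numbered 3. An exon depth above that of the control was found for 20 of 24, beside 6297 of 12576 genes. The median log2 fold change was 0.69 by summed FPKM and 0.74 by exon depth, against −0.00 and 0.00 over all genes. SLC3A2 was at 267 FPKM in the control and 1024 after Cur and Pip (1.93, and 1.77 by exon depth). GDF15, a secreted stress hormone, was at 130.2 and 466 FPKM (1.83). CHAC1, which degrades glutathione, was at 4.46 and 16.3 FPKM (1.66), and its exon depth gave 1.28. With transcripts required to share 80% of their exonic bases with the gene, CHAC1 turned to −2.45. ASNS, asparagine synthetase, was at 131 FPKM after Cur and Pip and listed at 0 in the control. As for OST4 and SPCS1, that 0 is not read as silence, and 4 of the 5 higher members were listed in both libraries. In the second pair under the Hep3B label ASNS was at 47.5 FPKM after NaB, Cur and Pip and listed at 0 after NaB. It had no exon depth in that pair. ATF4 itself, chosen after its values were seen, was at 258 and 429 FPKM (0.73). The lowest members listed in both were CTH, which makes cysteine from cystathionine, at 15.4 and 5.07 FPKM (−1.43), DDIT4, an inhibitor of mTORC1 (−0.24), and VLDLR, a lipoprotein receptor (−0.10).

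The element that ATF4 binds together with C/EBP proteins, searched as TGATGNAAN on both strands, was present in the promoter windows (250 bases before to 50 after the RefSeq gene start, GRCh38.p14) of 4 of the 22 list genes matched. It was in 4 of their 33 windows and in 3.61% of all 35116. The 2 members that hold it before their start and that are named above are printed from 250 bases upstream to the start, with the match in capitals. The window of ASNS that holds it lies on the minus strand of chromosome 7 at chr7:97872409-97872658, with the match 68 bases before the start:
ASNS: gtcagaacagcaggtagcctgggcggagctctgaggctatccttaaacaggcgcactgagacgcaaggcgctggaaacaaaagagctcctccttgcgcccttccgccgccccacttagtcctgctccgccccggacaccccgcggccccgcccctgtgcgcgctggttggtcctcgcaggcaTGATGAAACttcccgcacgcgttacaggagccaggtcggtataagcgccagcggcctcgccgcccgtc
CHAC1 lies on the plus strand of chromosome 15 at chr15:40953221-40953470, and its match is on the other strand, beginning 210 bases before the start:
CHAC1: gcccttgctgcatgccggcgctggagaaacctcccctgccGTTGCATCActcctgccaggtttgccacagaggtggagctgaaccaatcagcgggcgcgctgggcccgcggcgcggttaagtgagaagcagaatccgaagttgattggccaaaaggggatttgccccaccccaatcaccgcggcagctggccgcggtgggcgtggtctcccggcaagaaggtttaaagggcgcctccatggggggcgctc
A match is a string of letters and no evidence that a factor was bound.

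Chaperones of the endoplasmic reticulum (ER), which fold secreted proteins, leaned the same way without passing the threshold. None of 20 was past it by summed FPKM, and 3 were higher by exon depth beside 5.08% of all genes. Of the 20, 18 had a higher exon depth, and the medians were 0.47 and 0.60. HSPA5, the main ER chaperone BiP, was at 223 FPKM in the control and 611 after Cur and Pip (1.45). DNAJB9, its co-chaperone, was at 9.34 and 20.9 FPKM (1.08), and HSP90B1, the ER form of HSP90, at 277 and 439.6 FPKM (0.66). At the other end were CRELD2 (−0.61) and the disulfide isomerases PDIA6 (−0.36) and PDIA4 (−0.24). The aminoacyl-tRNA synthetases, many of which ATF4 also drives, had a median of 0.10 with none of 20 past the threshold. CARS1 and GARS1, which charge the tRNAs of cysteine and glycine, were highest there, at 0.95 and 0.93.

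NRF2 targets held a few genes well above the control and had a list median near 0. Of 27, 3 were past the threshold as higher and 2, FTH1 and FTL, counted as lower only through their missing transcripts, beside 6.70% and 4.11% of all genes. By exon depth 4 of 27 were higher and none lower, beside 5.08% and 2.89% of all 12576 genes with a value, and the median was 0.19 by summed FPKM and 0.17 by exon depth. Beside OSGIN1, HMOX1 was at 10.5 FPKM in the control and 41.9 after Cur and Pip (1.90), and SLC7A11 at 5.58 and 20.0 FPKM (1.68). Members below the control included AKR1C3, an aldo-keto reductase, at 551 and 325 FPKM (−0.76), and TALDO1 of the pentose phosphate pathway (−0.29). GCLM, the modifier subunit of the enzyme that starts glutathione synthesis, was chosen after its values were seen and stood just inside the threshold, at 8.52 and 25.2 FPKM (1.46). The core of the antioxidant response element, searched as TGACNNNGC on both strands, was in 8 of the 23 promoter windows of 19 matched list genes and in 13.3% of all windows. The window of GCLM is shown because the gene had it close to its start, on the other strand and beginning 34 bases before it, at chr1:93909431-93909680 on the minus strand of GRCh38.p14:
GCLM: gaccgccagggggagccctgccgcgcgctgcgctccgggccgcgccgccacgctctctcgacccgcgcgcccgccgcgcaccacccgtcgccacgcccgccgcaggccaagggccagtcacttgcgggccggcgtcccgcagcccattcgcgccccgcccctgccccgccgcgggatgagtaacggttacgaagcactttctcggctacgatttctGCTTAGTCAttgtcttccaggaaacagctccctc
OSGIN1 had no such letters in its window, which says nothing of more distant sites.

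Of 19 heat shock proteins and co-chaperones 1 was past the threshold as higher, beside 6.70% of all genes and 3.38% of protein-coding ones. A count of 1 says little about the list. HSPA6, a strictly stress-induced HSP70, was at 13.8 FPKM after Cur and Pip and listed at 0 in the control. HSPB8 and BAG3, which act together in chaperone-assisted autophagy, were at 22.9 and 53.3 FPKM (1.18) and at 23.7 and 44.2 FPKM (0.87). HSPH1, an HSP110 exchange factor, was at 30.5 and 51.5 FPKM (0.74). The mitochondrial chaperone HSPD1 was at 353 and 276 FPKM (−0.35), and the list median was 0.11. The heat shock element, searched as GAA, NN, TTC, NN and GAA in a row on both strands, was in 7 of 30 windows of 19 matched list genes and in 0.490% of all windows. That of HSPA6 is printed because the gene is the only member past the threshold. It lies at chr1:161524290-161524539 on the plus strand of GRCh38.p14, with the match on the other strand beginning 74 bases before the start:
HSPA6: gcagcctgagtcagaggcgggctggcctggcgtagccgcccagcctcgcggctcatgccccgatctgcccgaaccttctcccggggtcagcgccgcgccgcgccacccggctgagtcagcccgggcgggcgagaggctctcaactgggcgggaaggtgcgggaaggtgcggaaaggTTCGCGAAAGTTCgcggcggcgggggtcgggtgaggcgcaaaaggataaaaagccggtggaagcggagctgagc
Among 17 autophagy and lysosome genes, SQSTM1 alone was past the threshold by both measures. LAMP1, a lysosomal membrane protein, was at 203 and 584 FPKM (1.52) and its exon depth gave 0.29, and the sialidase NEU1 was at 26.6 and 59.6 FPKM (1.14). The 31 proteasome subunits had none past the threshold, and 24 had a higher exon depth (median 0.18).

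Genes of the cell cycle were shifted downwards as groups, each by little. Of 38 G1/S genes, 1 was past the threshold as higher and 2 as lower, beside 6.70% and 4.11% of all genes, and 31 had a lower exon depth in the treated library, beside 6279 of 12576 genes. The list medians were −0.48 by summed FPKM and −0.43 by exon depth. MCM7 and MCM5, subunits of the replicative helicase, were at 337 and 87.5 FPKM (−1.93) and at 142.6 and 62.9 FPKM (−1.17), and CDC45, its partner, at 38.0 and 19.8 FPKM (−0.90). At the other end CDC6, which loads that helicase, was at 67.1 and 70.8 FPKM (0.08), CCNE1 (cyclin E1) at 6.92 and 8.49 FPKM (0.26) and CLSPN, a replication checkpoint adaptor, at 9.38 and 11.8 FPKM (0.30). The member past the threshold as higher was PRIM1, the DNA primase, at 50.3 FPKM after Cur and Pip and listed at 0 in the control. RFC4, a clamp loader subunit, counted as lower because it was listed at 0 after treatment, with an exon depth of 45.9 and 24.1. Of 36 G2/M genes none was past the threshold by summed FPKM, and 33 had a lower exon depth (medians −0.49 and −0.42). CENPA, the centromeric histone, was at 40.6 and 17.1 FPKM (−1.20), NUSAP1, a spindle protein, at 90.5 and 40.4 FPKM (−1.14), and the kinesin KIF20A at 43.7 and 19.7 FPKM (−1.11). PTTG1 (securin) and CCNB1 (cyclin B1) were near their control levels, at 84.9 and 108.6 FPKM (0.35) and at 121 and 134.9 FPKM (0.15).

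Lists of lipid synthesis, respiration and splicing leaned downwards with few or no members past the threshold. None of 23 genes of sterol synthesis and LDL uptake was past it, and 20 had a lower exon depth (median −0.43 by summed FPKM). STARD4, a cytosolic sterol carrier, was at 18.3 and 6.02 FPKM (−1.46, and −0.39 by exon depth), and EBP, the sterol isomerase, at 145 and 70.5 FPKM (−1.03). In fatty acid synthesis 11 of 12 genes had a lower exon depth (median −0.34), led by SREBF1, the transcription factor of the pathway, at 49.4 and 20.9 FPKM (−1.20). Of 32 subunits of the respiratory chain 25 had a lower exon depth (median −0.32). By summed FPKM 2 of them were past the threshold as higher and 1 as lower, and by exon depth 0 and 2. Of 23 SR proteins and hnRNPs 22 had a lower exon depth (median −0.22), with 1 higher and 2 lower by summed FPKM, and 0 and 1 by exon depth. Of all genes 6.70% and 4.11% were past it by summed FPKM, and 5.08% and 2.89% by exon depth. HNRNPA1, the most abundant of these splicing factors, was at 924 and 293 FPKM (−1.65, and −0.98 by exon depth). Among 15 genes of peroxide defence 12 had a lower exon depth (median −0.19), with TXNIP, the inhibitor of thioredoxin, at 25.9 and 9.13 FPKM (−1.41) and GPX1, a glutathione peroxidase, at 297 and 115 FPKM (−1.36).

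Keratins, the intermediate filaments of epithelia, had the lowest median of the lists (−1.10 by both measures over 9 genes compared). KRT4 and KRT19 were past the threshold as lower, beside 4.11% of all genes, KRT19 at 73.3 FPKM in the control and 23.2 after Cur and Pip (−1.62). KRT8, a keratin of simple epithelia, was at 1654 and 589 FPKM (−1.49). KRT16 and KRT80 stood at the other end, at 1.97 and 4.23 FPKM (0.82) and at 32.4 and 33.3 FPKM (0.04). Of 6 epithelial junction genes none was past the threshold (median 0.22), and of 8 mesenchymal genes SNAI1 alone was (median −0.13), with VIM, the mesenchymal filament, at 390 and 275 FPKM (−0.50).

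Immediate early genes, which respond to growth factors and stress within minutes, had a list median of −0.22. Of 20 compared, 1 was past the threshold as higher and 2 as lower by summed FPKM, and 1 and 4 were by exon depth. Of all genes 6.70% and 4.11% were by summed FPKM, and 5.08% and 2.89% by exon depth. Of protein-coding genes 3.38% and 3.67% were by summed FPKM. Counts this small say little about the list. IER3 was at 60.2 FPKM in the control and 207 after Cur and Pip (1.76, and 2.47 by exon depth). FOS and EGR1 were at 168 and 48.2 FPKM (−1.78) and at 18.8 and 5.63 FPKM (−1.58), and FOSB at 19.4 and 6.39 FPKM (−1.46). Of 38 genes of the apoptosis machinery 1 was higher and 2 were lower, all 3 of them listed in only 1 library (median 0.02). These counts are near the 3.38% and 3.67% of protein-coding genes, beside 6.70% and 4.11% of all genes. TNFRSF10A, a receptor of the death ligand TRAIL, was listed at 14.1 FPKM after Cur and Pip, and by exon depth at 3.60 in the control and 12.6 after Cur and Pip (1.56). CYCS, which encodes cytochrome c, was at 336 FPKM in the control, and its exon depth was 336 and 111 (−1.59). TNFSF10, the gene of TRAIL, was at 2.80 FPKM in the control and listed at 0 after treatment by both measures. Between those ends were CASP9, the initiator caspase of the mitochondrial route, at 28.8 and 11.5 FPKM (−1.26) and TNFRSF10B, another TRAIL receptor, at 19.1 and 28.3 FPKM (0.54).

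Of the genes that the study followed by qRT-PCR, 4 are given here, and all 4 were higher after Cur and Pip, none of them past the threshold by summed FPKM. GADD45A, a growth arrest gene, was at 24.6 FPKM in the control and 66.8 after Cur and Pip (log2 fold change 1.41, and 2.14 by exon depth). CDKN1A, which encodes the kinase inhibitor p21, was at 41.6 and 88.4 FPKM (1.07). The BH3-only genes PMAIP1 and BBC3, which encode NOXA and PUMA, were at 15.4 and 27.4 FPKM (0.79) and at 6.10 and 8.03 FPKM (0.35). GAPDH, often the reference gene of such assays, was at 2776 and 1647 FPKM (−0.75, and −0.21 by exon depth).

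Tubulins had the highest median by exon depth, 1.23 over 9 genes, and 0.30 by summed FPKM. TUBB2A, a beta-tubulin, was at 3.18 and 16.2 FPKM (2.04, and 2.00 by exon depth). TUBB, the common beta-tubulin, was at 722 and 715 FPKM (−0.02), yet its exon depth was 164 in the control and 714 after Cur and Pip (2.12), so the 2 measures part on this gene. Cytosolic ribosomal protein genes, many with processed copies elsewhere in the genome, had 11 of 69 past the threshold as higher and 8 as lower by summed FPKM, and 4 and 2 by exon depth (medians −0.13 and −0.14), beside 6.70% and 4.11% of all genes by the first measure and 5.08% and 2.89% by the second. Of the lists not yet given, medians by summed FPKM ran from −0.85 (drug efflux and conjugation, 9 genes) to 0.38 (NF-kB targets and cytokines, 17 genes). The other medians were −0.68 for metallothioneins and zinc export, −0.65 for iron handling, −0.26 for the Wnt pathway, −0.13 for AHR targets, −0.08 for interferon-stimulated genes, −0.05 for glycolysis, −0.02 for nuclear and snoRNA host lncRNAs, 0.00 for polyamine metabolism, 0.16 for YAP and TGF-beta targets, 0.19 for ribosome biogenesis and 0.30 for hypoxia-responsive genes. The lowest of these medians depend on members listed in only 1 library. Over members listed in both, the median was 0.29 for drug efflux and conjugation (7 genes) and 0.37 for metallothioneins and zinc export (3 genes). For iron handling it was −0.41 (8 genes). By exon depth over all members the medians of these lists were −0.73, −0.72 and −0.35. MALAT1, a nuclear lncRNA, was at 45.6 FPKM in the control and 170 after Cur and Pip (1.88). The metal response element, searched as TGCACNC or TGCGCNC on both strands, was in all 4 windows of the 4 metallothionein and zinc export genes matched and in 29.6% of all windows. Of 5 such genes compared, none was past the threshold as higher and 1, MT2A, was as lower by both measures, beside 4.11% of all genes by summed FPKM. MT2A was at 185 FPKM in the control and listed at 0 after Cur and Pip, where its exon depth was 53.3.

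**Figure D3:**
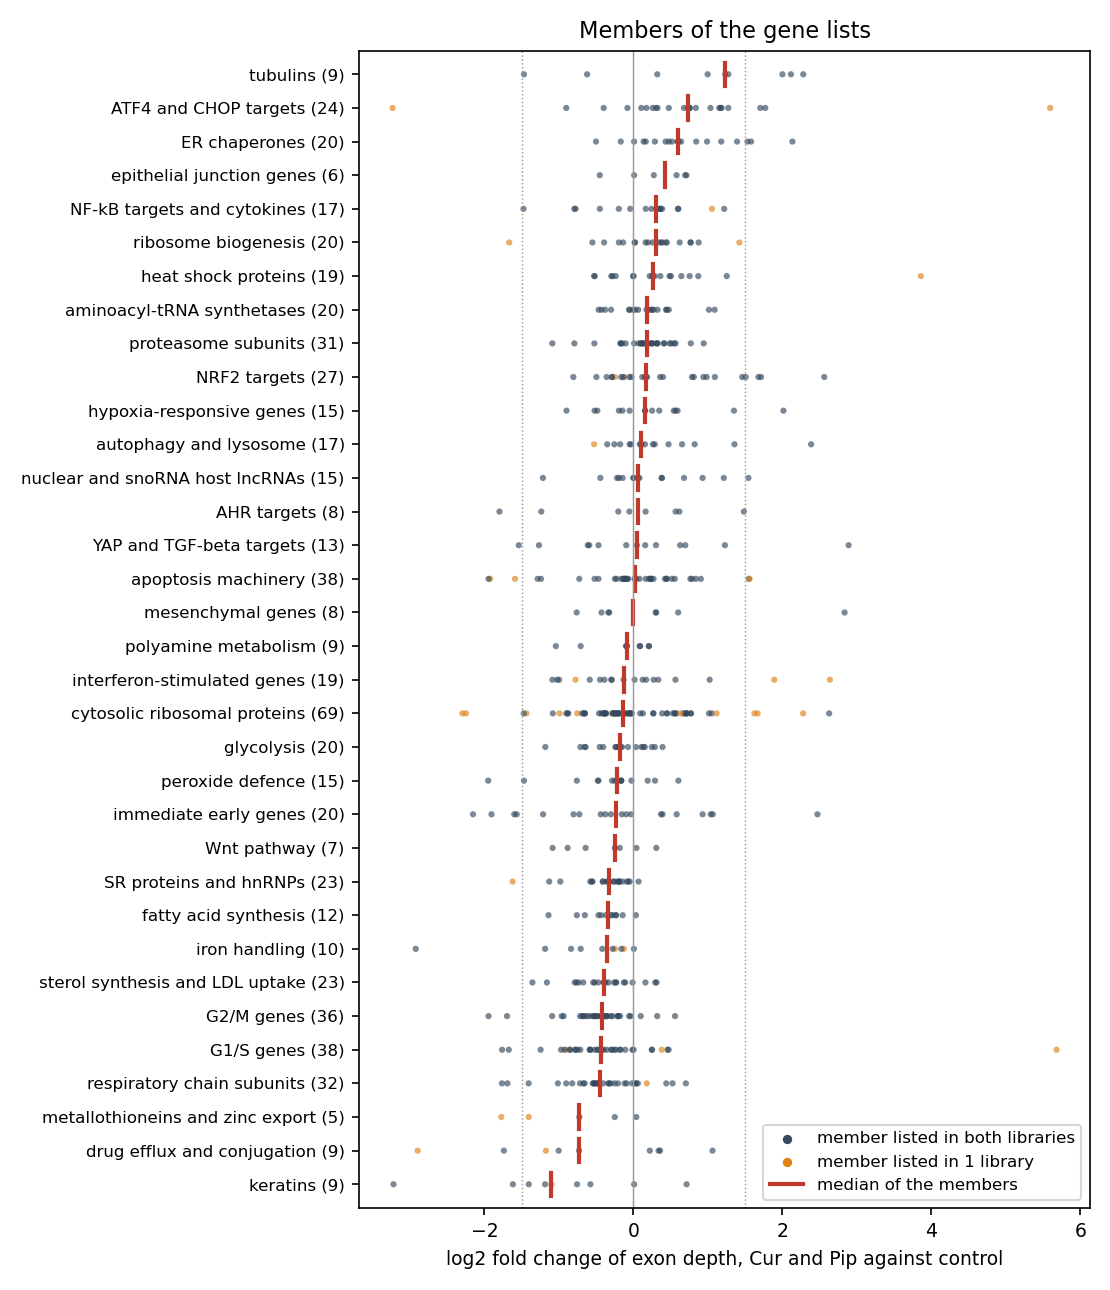
Log2 fold change of exon depth between Cur and Pip and control (x axis) for each member of 34 gene lists (rows, ordered by median, number of genes in brackets). Dark points are members listed in both libraries, orange points members listed in only 1, red bars the median, and dotted lines the threshold of 1.5. The medians run from −1.10 for keratins to 1.23 for tubulins, with ATF4 and CHOP targets at 0.74 and G2/M genes at −0.42.

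The excess of higher over lower genes came from pseudogenes, copies of genes that mostly make no protein. Of 659 pseudogenes compared, 360 were higher after Cur and Pip (54.6%) and 30 were lower (4.55%), with a median log2 fold change of 1.68. Among the 288 listed in both libraries, 61 were higher and 11 lower (median 0.79). Among 836 lncRNAs, 107 were higher and 79 lower (median 0.20). Copies of ferritin heavy chain had the highest summed level after Cur and Pip of the 5 families of copies examined: of 12 compared, 9 were higher and 1 lower, with a median of 2.23 and a summed level of 576 FPKM in the control and 52371 FPKM after Cur and Pip, while the exon-depth log2 fold change of FTH1 was −0.25. All 6 copies of GAPDH were higher (median 4.70), with a summed level of 19.8 and 849 FPKM. Of 185 copies of ribosomal protein genes, 115 were higher and 5 lower (median 2.15). Such copies are near-identical to their parents, so a read of the parent can be placed on them, and their levels are uncertain.

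Several measures of the libraries moved with the pseudogenes. Single-exon transcripts numbered 3646 in the control and 6416 after Cur and Pip. Transcripts inside a gene but mostly outside its exons held 1.66% of the fragments in the control and 3.38% after Cur and Pip, those within 5000 bases downstream of a gene 0.372 and 0.865%, and those antisense to a gene 0.216 and 0.321%. In the second pair under the Hep3B label the median exon-depth log2 fold change of the ferritin heavy chain copies was 0.43, and in HepG2 it was 2.65. The part of these measures in the pseudogene levels was not tested.

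**Figure D4:**
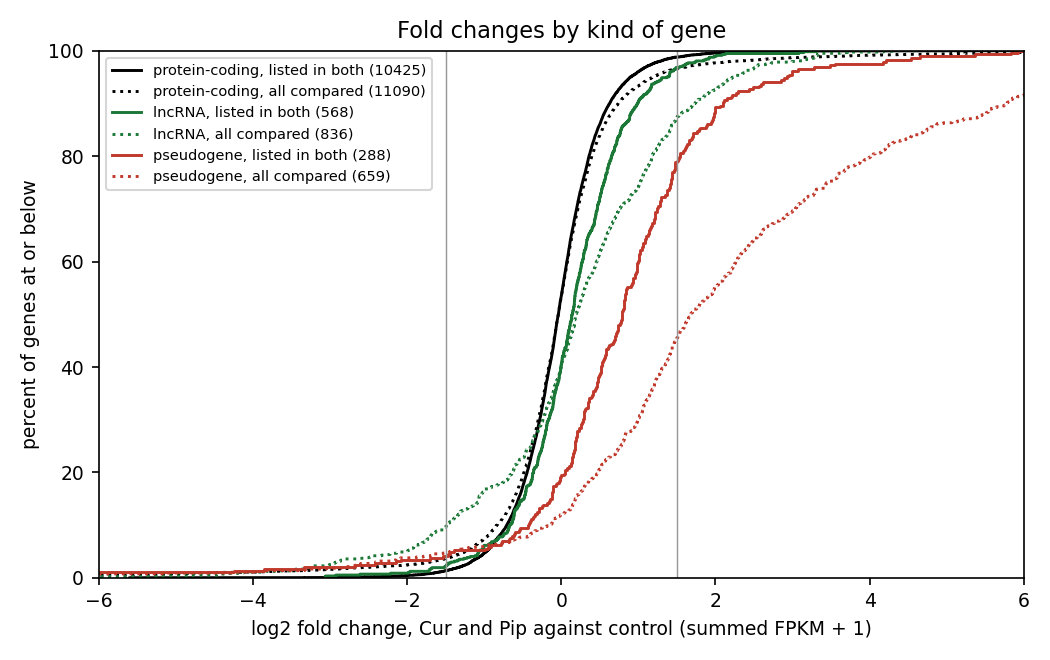
Cumulative percentage of genes (y axis) at or below each log2 fold change of summed FPKM + 1 between Cur and Pip and control (x axis, cut at 6 either way), for protein-coding genes, lncRNAs and pseudogenes. Solid lines are genes listed in both libraries and dotted lines all genes compared, with their number in brackets, and grey lines mark the threshold of 1.5. The pseudogene lines lie right of the others, with medians of 0.79 and 1.68.

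The same doses of Cur and Pip for 48 h were also given in 2 pairs of libraries that share no library with this one: on top of NaB under the Hep3B label, and in HepG2. Of the 27 protein-coding genes that were higher by both measures, 18 were higher by exon depth in the second pair under the Hep3B label and 9 were past the threshold there, beside 53.6% and 2.22% of all protein-coding genes with a value. In HepG2, 24 of the 27 had a value, of which 17 were higher and 11 past the threshold, beside 45.8% and 4.82%. Of the 56 that were lower, 43 were lower and 7 past the threshold in the second pair (46.4% and 2.17% of all), and in HepG2 24 of 38 were lower and 11 past it (54.2% and 7.45%). In the opposite direction 2 and 1 of these genes were past the threshold in the second pair, and 0 and 5 in HepG2.

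The values of the leading genes in the 3 pairs are set side by side. SNAI1 had exon-depth log2 fold changes of 2.84 here, 3.45 on top of NaB and 3.03 in HepG2, and ARC had 3.44, 3.03 and 4.99. BEX2 had 2.90, 2.38 and 2.50, and OSGIN1 2.56, 1.77 and 2.48. ID2 was higher under the Hep3B label in both pairs (2.89 and 2.92), with 0.35 in HepG2, and TIMP4 likewise had 3.23, 1.64 and 0.35. SQSTM1 had 2.39 here, −0.80 on top of NaB and 0.29 in HepG2, and GDF15 had 1.71, −1.26 and 2.48. By summed FPKM SQSTM1 was at 533 after NaB and 322 in the HepG2 control, and listed at 0 in the treated library of each pair. Its exon depth in those treated libraries comes from transcripts that were not assigned to it. For the 3 pairs in the order above RPL37A had 2.63, −0.19 and −0.05, TUBA1A 2.28, −1.68 and −0.97, and TPRKB 1.65, −1.25 and −1.03. DDAH2 had 2.60, 2.00 and −1.37, and GCNT3 2.71, 1.32 and 1.39. Among the lower genes, LUM and MUC3A were also lower on top of NaB (−1.70 and −1.51), and neither had a value in HepG2. CP and ARL6IP6 were lower in HepG2 as well (−2.59 and −3.93), and on top of NaB ARL6IP6 was at −1.27. KRT4, CP and ALPI had fold changes of the other sign on top of NaB (1.13, 0.85 and 0.82), from low levels after NaB. KRT4 was at 0.87 FPKM after NaB and 2.43 after NaB, Cur and Pip, CP at 0 and 1.91, and ALPI at 15.2 and 26.3. Each stayed below its level in the untreated control of the label (15.2, 11.8 and 486 FPKM). For the lists, the medians of exon depth here, on top of NaB and in HepG2 were 0.74, 0.43 and 0.75 for ATF4 and CHOP targets, 0.60, 0.91 and −0.20 for ER chaperones, −0.43, −0.24 and −1.31 for G1/S genes, −0.42, −0.47 and −1.83 for G2/M genes, and −0.39, −0.35 and −0.92 for sterol synthesis and LDL uptake. Tubulins, the highest list here at 1.23, had −0.61 and −0.42, and keratins, the lowest at −1.10, had −0.88 and −0.07. Whether the pairs differ was not tested.

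**Figure D5:**
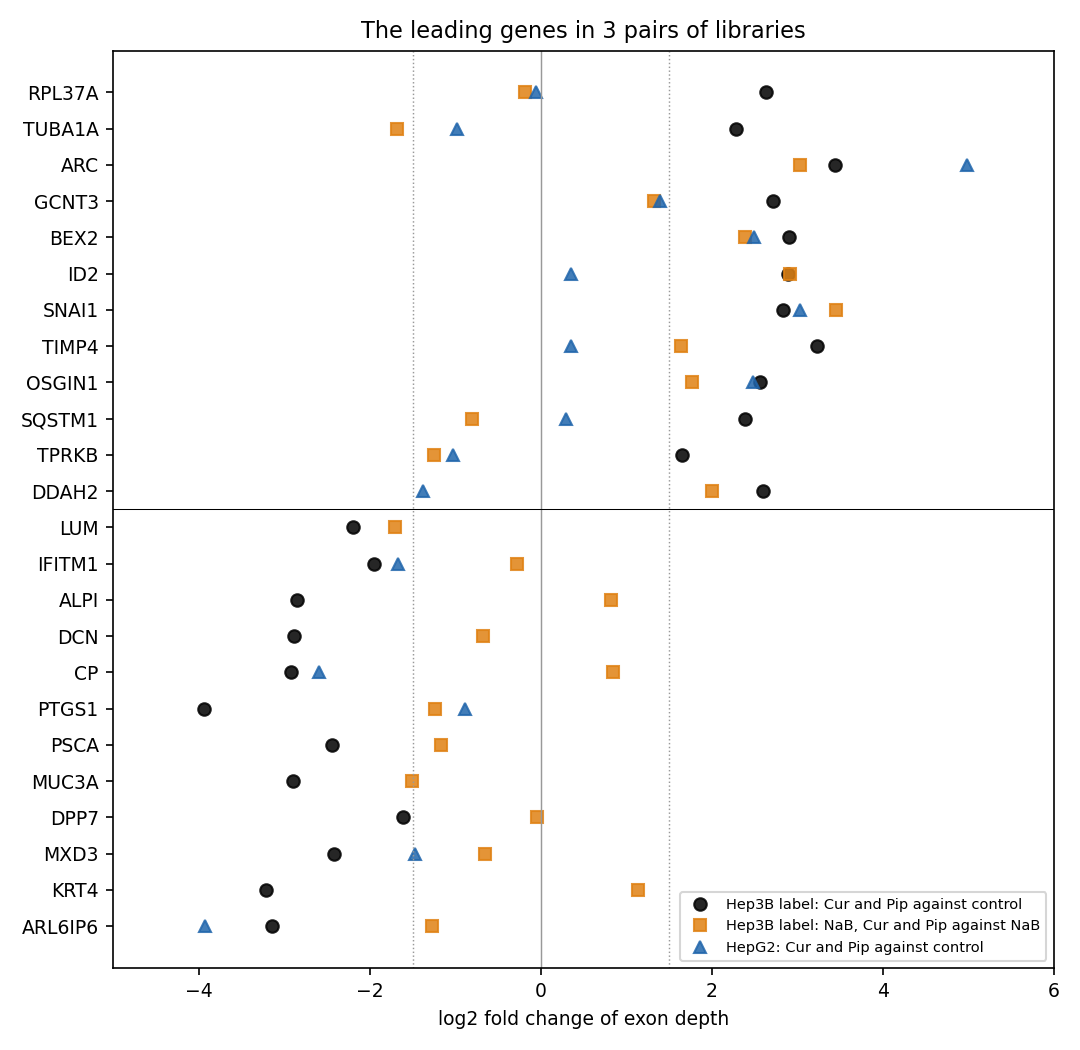
Log2 fold change of exon depth (x axis) of the 12 highest (upper) and 12 lowest (lower) protein-coding genes in the 2 libraries compared here (black circles), on top of NaB under the same label (orange squares) and in HepG2 (blue triangles). A missing triangle means that the gene was assembled in neither HepG2 library. ARC, BEX2, SNAI1 and OSGIN1 lie right of the dotted threshold of 1.5 in all 3 pairs, and SQSTM1 in 1. No transcript was assigned to SQSTM1 in the treated libraries of the other pairs.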

How the data were processed

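RNA of the libraries labelled Hep3B, untreated or given Cur and Pip for 48 h, was sequenced with 1 library per condition. Per the labels, total RNA was extracted with a Qiagen RNeasy kit and libraries were made with the NEBNext Ultra II Directional kit. The authors mapped reads to GRCh38 with STAR and ran Cufflinks on each library. FastQC and Cuffdiff are also among the tools in the submitters' notes, all without versions. The deposited values are FPKM per transcript, beside bounds of a 95% interval and a depth, and they name no gene. No counts were read, so no count model was run.

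Transcripts were assigned with bedtools 2.31.1 to GENCODE release 44 genes, and levels, intervals and exon depth were computed in Python 3.11.15 with numpy 2.4.6, pandas 2.3.3 and matplotlib 3.10.9. A gene's interval joins those of its transcripts and holds the error of 1 library, with no spread between cultures. The pseudocount of 1 understates changes of low genes.

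Members, gene lists and rules were chosen with earlier results of these data known. Of 35 lists, 34 are described and 1 is not reported here, nor are 2 single genes. Named genes are the 12 highest and 12 lowest protein-coding genes listed in both libraries, at 5 FPKM or more in either, with disjoint intervals and past 1.5 by both measures; up to 3 list members at each end; the 5 highest genes listed in only 1 library, each way; and the genes of the study's qRT-PCR with GAPDH. The other genes named (such as FTH1, FTL, HNRNPC, H2BC12, H2BC12L, C3, PSMB8, MARS1, the cell type markers and list members behind a small count) were picked after their values were seen. Promoters come from a RefSeq table. The assignment and the fold call were tested on simulated data. The alternatives tried were other pseudocounts, FPKM filters, scalings, transcript choices, gene kinds and thresholds, and disjoint intervals; leaving out pseudogenes was added after seeing the data.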

Additional observations from a re-analysis of the deposited data

Results flagged for a closer look

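FOS and EGR1, transcription factors of the early growth response, were past the threshold in opposite directions in the 2 lines after the same doses of Cur and Pip. FOS had a log2 fold change of −1.78 in the libraries labelled Hep3B and 2.21 in HepG2. EGR1 had −1.58 in the libraries labelled Hep3B and 2.21 in HepG2. In both lines the direction was the same by exon depth, with −2.15 and 2.27 for FOS and −1.57 and 1.88 for EGR1. In the second pair under the Hep3B label, on top of NaB, FOS had 1.12 and EGR1 0.37 by exon depth. FOS was there at 28.9 FPKM after NaB and 51.3 after NaB, Cur and Pip, and EGR1 at 2.91 and 4.18 FPKM. These levels were all below those of the untreated control of the label, 168 FPKM for FOS and 18.8 for EGR1. Each line has 1 library per condition, so the difference between the lines was not tested.

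Some genes with large differences depended on the measure. RPS20, UQCRB and SDHD, which are a ribosomal protein and subunits of the respiratory chain, had log2 fold changes of 4.15, 2.64 and −5.60 by summed FPKM and of 0.58, −0.48 and −1.41 by exon depth. WTIP, APOLD1 and H2AJ were past the threshold by summed FPKM (3.46, −4.67 and −3.36) and not by exon depth (1.18, −0.48 and −1.46). PABPC3, an intronless poly(A)-binding protein gene, was at 1.55 FPKM in the control and 55.0 after Cur and Pip and had no exon bases of its own for the second measure.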

How the results depend on the processing

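The counts of genes past the threshold were recomputed under 17 alternatives. With a pseudocount of 5, 391 genes were higher and 256 lower, and 97 and 91 of those listed in both libraries. With a pseudocount of 0.1, 405 genes listed in both were higher. At a log2 fold change over 1 there were 1434 higher and 1009 lower (586 and 539 listed in both), and over 2 there were 337 lower (83 higher and 59 lower listed in both). Among protein-coding genes only, 375 were higher, 126 of them listed in both, and with pseudogenes left out 485 were higher. TPM over transcripts of at least 300 nt gave 343 higher genes listed in both, and transcript depth averaged over annotated exons gave 128. The other 51 values lay within 1.5 times the count as reported. Of the 24 leading genes, all 24 stayed past the threshold except CP with a pseudocount of 5, DDAH2 without transcripts that span several genes, and RPL37A, DDAH2 and MXD3 at 80% of exonic bases. Directions turned in 8 cases. At 80% of exonic bases CHAC1 was at −2.45, DDAH2 at −4.50, RPS23 at −7.02 and RPS29 at 0.54. Without transcripts that span several genes DDAH2 was at −4.50. By exon depth HNRNPA3 was at −0.56, UQCRB at −0.48 and RPS29 at 0.70. The cause was not tested. No paired analysis was possible because each condition has 1 library. Estimated fragments of about 31 to 33 M leave levels near 1 FPKM imprecise.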
